A study of Homo sapiens with 6 samples.

Results

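The cytosolic ribosomal protein genes are described here in human embryonic stem cells depleted of DDX18. They were chosen by name: rows of the deposited table whose symbol is RPL or RPS followed by a number, with or without a final A or X, together with RPLP0, RPLP1, RPLP2 and RPSA. The rule found 75 genes among the 17929 rows of the table, 46 of the large and 29 of the small ribosomal subunit. Pseudogene copies and paralogs with other endings were left out, and RPS18 was not analysed here.

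The study sequenced RNA from the established human embryonic stem cell lines H9 and HES2, each maintained on inactivated mouse embryonic fibroblast feeders. Cells were infected with virus carrying a hairpin against luciferase (shLuc, the control) or 1 of 2 hairpins against the helicase gene DDX18 (shDDX18#1 and shDDX18#3), and were collected on day 4. Each line gave 1 library per hairpin, so that there were 6 libraries, 2 of shLuc and 4 of knockdown, and no library without virus. The labels do not say that libraries came from separate cultures, so a p-value here speaks only of how far these 6 libraries scatter.

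Ribosomal proteins clothe the ribosomal RNAs of the small subunit, which reads the messenger RNA, and of the large subunit, which joins amino acids. They are made in the cytoplasm in near equal numbers, carried into the nucleus and assembled on pre-ribosomal RNA in the nucleolus, where DDX18, a DEAD-box helicase, also resides. Most of their messengers begin with a C followed by a run of C and T, the 5′ terminal oligopyrimidine (TOP) start, through which the protein LARP1 and the kinase mTOR control their translation and stability as a class.

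The first bases of the genes that the results turn on are printed here, because the TOP start is the best-known feature that members share and the choice of members did not use it. Each window runs from 60 bases before to 20 bases from the annotated start, on the gene's own strand, from RefSeq on GRCh38.p14, and capitals mark the run of C and T that begins at the start. The members with the largest falls in each subunit that have an entry in the promoter table come first.
RPL3 (chr22:39319604-39319683, minus strand): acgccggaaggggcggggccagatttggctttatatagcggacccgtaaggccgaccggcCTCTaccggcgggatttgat
RPL12 (chr9:127451387-127451466, minus strand): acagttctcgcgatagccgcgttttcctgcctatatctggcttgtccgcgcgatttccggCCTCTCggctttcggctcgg
RPL10A (chr6:35468341-35468420, plus strand): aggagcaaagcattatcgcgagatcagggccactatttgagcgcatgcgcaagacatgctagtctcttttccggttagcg
RPS9 (chr19:54200798-54200877, plus strand): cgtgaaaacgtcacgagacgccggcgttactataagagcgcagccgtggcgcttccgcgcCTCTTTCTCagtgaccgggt
RPS3 (chr11:75399458-75399537, plus strand): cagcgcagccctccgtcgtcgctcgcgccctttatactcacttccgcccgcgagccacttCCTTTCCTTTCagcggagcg
RPS25 (chr11:119018324-119018403, minus strand): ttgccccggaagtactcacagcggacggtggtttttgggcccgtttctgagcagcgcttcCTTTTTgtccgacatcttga
The members with the least change in each subunit that have an entry come next. RPS19, which has a second annotated start, was added after its values had been seen and is shown at its first.
RPS26 (chr12:56041858-56041937, plus strand): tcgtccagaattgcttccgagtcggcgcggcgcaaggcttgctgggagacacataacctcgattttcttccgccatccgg
RPS15 (chr19:1438336-1438415, plus strand): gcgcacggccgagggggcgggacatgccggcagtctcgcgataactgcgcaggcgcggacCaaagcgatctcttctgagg
RPL36 (chr19:5690235-5690314, plus strand): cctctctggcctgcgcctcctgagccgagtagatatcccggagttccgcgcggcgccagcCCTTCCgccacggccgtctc
RPL28 (chr19:55385872-55385951, plus strand): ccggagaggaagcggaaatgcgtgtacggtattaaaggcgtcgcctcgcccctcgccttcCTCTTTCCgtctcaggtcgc
RPS19 (chr19:41860195-41860274, plus strand): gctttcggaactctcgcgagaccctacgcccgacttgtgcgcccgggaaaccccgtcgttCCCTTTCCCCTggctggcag
A strict TOP start, taken as a C at the annotated start followed by at least 4 C or T, was found in 45 of the 61 members with a promoter entry (73.8%), against 5.14% of 27305 genes in the same table. Among the printed windows it is present in RPL12, RPS9, RPS3 and RPS25, which fell, and equally in RPL36, RPL28 and RPS19, which did not pass the test. RPL3, with only 4 pyrimidines before an A, and RPL10A, whose pyrimidine run does not begin at the annotated base, do not meet the strict definition, and neither do RPS26 and RPS15, which did not pass the test. These matches describe the annotation, in which a start misplaced by a base decides the outcome.

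The targeted transcript, DDX18, had a normalized signal of 153 CPM with shLuc, 19.2 with shDDX18#1 and 47.3 with shDDX18#3 in H9 cells, and of 161, 39.3 and 60.4 for the same hairpins in HES2 cells. CPM is the deposited normalized signal, in reads per 1e+06 of effective library size. Libraries held between 2668179 and 4271741 reads in the table, so that a single read was worth 0.224 to 0.408 CPM. All 14 pluripotency markers listed for the cell type check were above 0 in every library. Their summed share of reads was lower with knockdown, at 0.824%, 0.418% and 0.554% in H9 (shLuc, shDDX18#1, shDDX18#3) and 0.756%, 0.567% and 0.560% in HES2, and the part of this change in the results below was not tested.

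Ribosomal protein genes took 5.42% of the reads in H9 shLuc, with a 95% Wilson interval of 5.40% to 5.44%. With shDDX18#1 the share was 3.07% (3.05% to 3.09%) and with shDDX18#3 4.04% (4.01% to 4.06%). In HES2 it was 5.54% (5.51% to 5.56%) in shLuc, 3.16% (3.14% to 3.18%) in shDDX18#1 and 3.73% (3.71% to 3.75%) in shDDX18#3. All 4 knockdown libraries thus lay below both shLuc libraries, and in both lines shDDX18#1, which left less DDX18 transcript, lay below shDDX18#3. The intervals cover counting error only.

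The summed normalized signal of the 75 genes came to 61.2% (shDDX18#1) and 76.0% (shDDX18#3) of the matching control for H9, and to 57.1% and 66.6% for HES2. For DDX18 itself the remainder was 12.6% and 31.0% (H9) or 24.5% and 37.6% (HES2). Within each line the order of the hairpins was the same for both quantities. H9 kept less DDX18 transcript than HES2 with each hairpin and, on this normalized scale, more ribosomal protein signal. The second difference depends on the scaling. The median difference between the lines in the members' changes (HES2 minus H9) was -0.12 on the deposited scale and -0.046 per total reads.

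The large and the small subunit declined side by side. Large subunit genes went from 3.38% of reads in H9 shLuc to 1.91% in shDDX18#1 and 2.50% in shDDX18#3, and small subunit genes from 2.04% to 1.16% and 1.54%. In HES2 the large subunit had 3.48%, 1.97% and 2.32% and the small subunit 2.06%, 1.19% and 1.40%. The ratio of large to small subunit reads stayed between 1.62 and 1.69 in all 6 libraries.

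**Figure D1:**
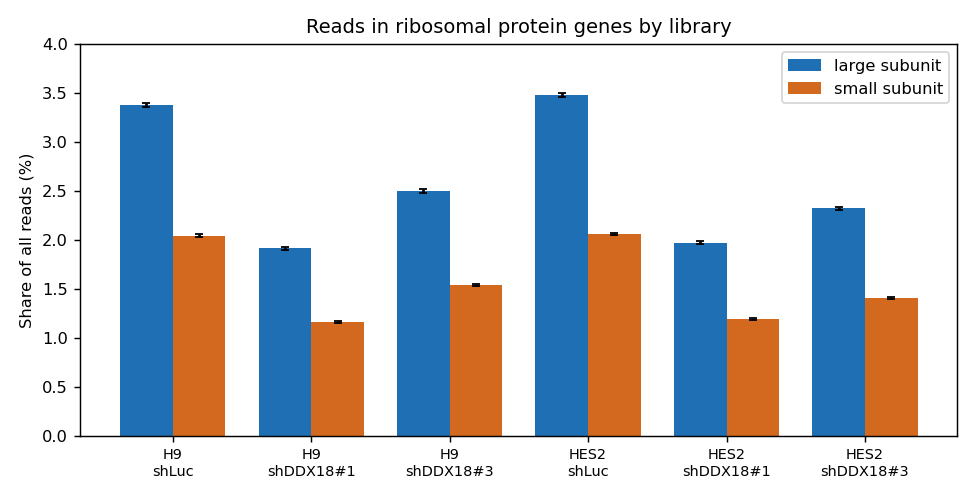
Share of all reads (%, vertical axis) in the 46 large subunit genes (blue) and the 29 small subunit genes (orange) in each of the 6 libraries, with 95% Wilson intervals. Both bars are lowest in the shDDX18#1 library of each line, 1.91% and 1.16% in H9 and 1.97% and 1.19% in HES2.

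Markers of fibroblasts and feeders moved in the opposite direction, with a higher share in each knockdown library than in the shLuc library of its line. The 25 measured genes of that list took 0.482%, 4.69% and 1.96% of reads in H9 shLuc, shDDX18#1 and shDDX18#3 and 0.202%, 0.861% and 0.712% in HES2. Of the 25, 16 rose in knockdown, where 9.6% of all genes tested rose (limma, adjusted p under 0.05). At 0 were 2 of the 25 in HES2 shLuc and 2 in HES2 shDDX18#3, and none in the other 4 libraries. Which cells carried these reads was not tested, nor was the part of fibroblasts or feeders in the changes. In bulk RNA fewer cells of a type and less RNA per cell cannot be told apart.

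Knockdown was compared with shLuc gene by gene, to ask which members carried the lower share. Of the 75 members 43 fell and 0 rose (limma, adjusted p under 0.05 over all genes tested), while 6.26% of the 17768 genes tested fell and 9.6% rose. By subunit, 27 of 46 large and 16 of 29 small members fell. The median change was -0.59 on the log2(CPM + 1) scale, on which all fold changes are given, against -0.02 over all genes tested. At an unadjusted p under 0.05, 71 members were lower and 0 higher, and 27 were lower without HES2 shLuc. The background at that p was 15.7% lower and 17.5% higher. Neither edgeR nor DESeq2 called a rise among members, and they called 42 and 52 falls, where 6.69% and 6.64% of all genes fell.

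The count of falls rests on the model and on single libraries. It was 0 without the intensity trend in the variance and 10 without the cell line in the model. In those fits 1.92% and 2.3% of all genes tested fell, and the members' median was -0.59 in both. The count was 0 without HES2 shDDX18#1 and 7 without HES2 shDDX18#3, where 1.39% and 2.79% of all genes fell. The median in these fits was -0.55 and -0.60. Without H9 shLuc and without HES2 shLuc, which leaves 1 shLuc library, the median was -0.66 and -0.55. The authors' deposited table lists 46 members lower and 0 higher at a false discovery rate under 0.05, 41 of them among the 43, where 9.42% of all its genes were lower.

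Without a test, the libraries order in the same way. In 73 members every knockdown library was below the shLuc library of its line, which held for 27.9% of all genes tested, with RPL28 and RPS19 as the exceptions. In 72 members all 4 knockdown libraries were below both shLuc libraries, against 20.9% of all genes, RPS4X being the third exception. Ribosomal protein genes are abundant, so genes at a mean of at least 200 CPM, a limit set after the values had been seen, serve as a closer background. There 39 of 68 members fell, against 21.1% of 848 genes, a background that includes these members.

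**Figure D2:**
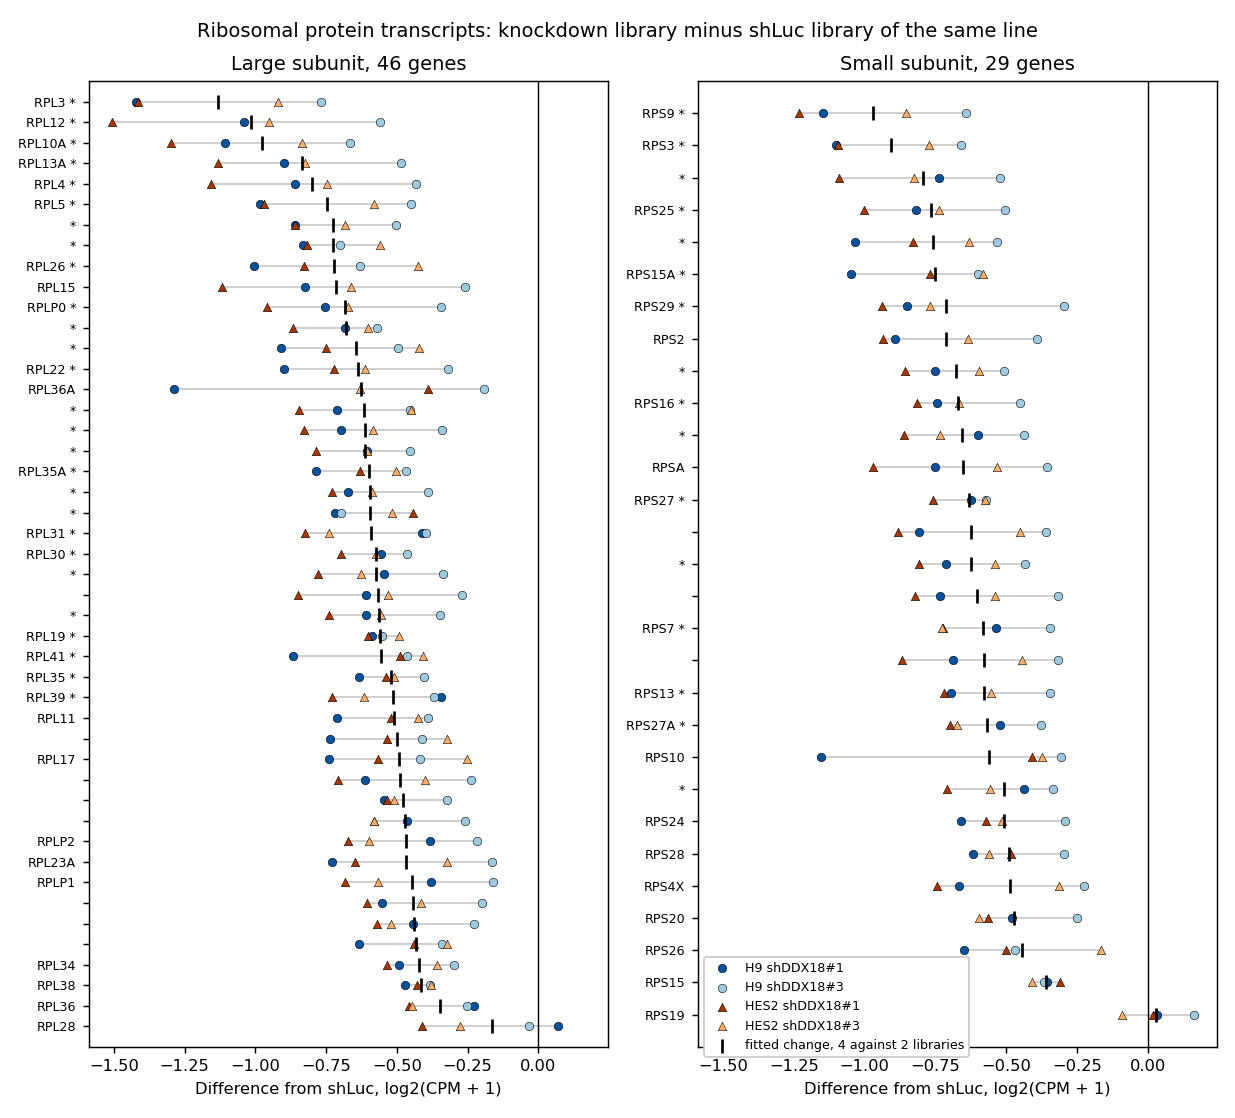
Difference of each knockdown library from the shLuc library of its line, in log2(CPM + 1) on the horizontal axis, for the 46 large (left) and 29 small (right) subunit genes, ordered by the fitted change (black tick); circles are H9, triangles HES2, dark shDDX18#1, light shDDX18#3, an asterisk marks a limma adjusted p under 0.05, and gene names are given for a selection. For 73 genes all 4 points lie left of 0; the exceptions are RPL28 and RPS19, and the fitted changes run from -1.13 (RPL3) to 0.03 (RPS19).

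Large and small subunit members differed little from each other. The median change was -0.57 for the large and -0.62 for the small subunit, a difference of 0.05. For single knockdown libraries the large minus small difference was 0.02 and -0.02 in H9 (shDDX18#1 and shDDX18#3) and 0.09 and 0.02 in HES2, with an SD of 0.05 over the 4 pairs. The difference was therefore about the size of its spread and changed sign in 1 of the 4 pairs.

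Members varied around their common fall with an SD of 0.18, beside a median change of -0.59. The median standard error of a single member's change was 0.16. That error holds scatter between libraries, including the gap between the hairpins, so it does not measure the spread between members. What stands out is a short list at either end, and the members there are described next by their place in the ribosome.

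RPL3 reaches into the peptidyl transferase centre with a long loop and is a core protein of the large subunit, encoded on chromosome 22 at 39312882 to 39320389 on GRCh38. Its signal was 2014 CPM in H9 shLuc, 750 in shDDX18#1 and 1181 in shDDX18#3, and 2166, 811 and 1145 in HES2. All 4 knockdown libraries lay below both shLuc libraries, and in both lines shDDX18#1 was the lowest. RPL3 fell from 2090 ± 108 (SD, n = 2) to 972 ± 223 (n = 4), a change of -1.13 with SE 0.23 (limma adjusted p = 0.0191), the largest of any member.

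RPL12 sits at the base of the stalk, the flexible arm that recruits the GTPases of translation. It was at 775, 376 and 526 CPM in H9 (shLuc, shDDX18#1, shDDX18#3) and at 961, 338 and 497 in HES2. The groups did not overlap, and RPL12 changed by -1.01 (SE 0.22, limma adjusted p = 0.0218). RPLP0, which holds the stalk's paired proteins, also fell, by 0.68 on the log2 scale (adjusted p = 0.0497), just inside the limit. The paired acidic proteins themselves did not pass the test, with RPLP1 at -0.45 (SE 0.17, adjusted p = 0.108) and RPLP2 at -0.47 (SE 0.15, adjusted p = 0.0653). All 4 were below shLuc in every pair.

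RPL10A forms the opposite arm, the L1 stalk, which guides transfer RNA out of the ribosome. Its values were 709, 328 and 446 CPM in H9 and 720, 292 and 403 in HES2, again with no overlap between the groups. RPL10A fell by 0.98 on the log2 scale (SE 0.19, limma adjusted p = 0.0167), which was the lowest adjusted p among members. RPL13A, known also for silencing inflammatory messengers once released from the ribosome, changed by -0.84 (adjusted p = 0.0265).

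RPL5 and RPL11 join 5S RNA into a particle that enters the large subunit or, when assembly falters, binds MDM2. RPL5 was at 1054, 532 and 771 CPM in H9 and 941, 480 and 629 in HES2. RPL11 was at 950, 580 and 724 CPM in H9 and 829, 577 and 618 in HES2. Both were lower in all 4 knockdown libraries without overlap. RPL5 changed by -0.75 (SE 0.20, limma adjusted p = 0.0407) and RPL11 by -0.51 (SE 0.16, adjusted p = 0.0613), so only the first passed, and the difference between the 2 changes was not tested.

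Proteins that line the peptide exit tunnel or its rim fell in 7 of 9 cases, against 43 of 75 members and 6.26% of all genes tested. RPL4, whose loop narrows the tunnel, changed by -0.80 (adjusted p = 0.0391). It was at 2046, 1126 and 1515 CPM in H9 and 2028, 909 and 1209 in HES2. RPL22, RPL31, RPL19, RPL35, RPL39 and RPL26 fell by 0.51 to 0.72 on the log2 scale. RPL23A, the docking site of factors that meet the nascent chain, and RPL17 stood at -0.47 and -0.49 and were not called (adjusted p = 0.131 and 0.139).

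In the small subunit RPS9 and RPS3, neighbours at the entrance of the messenger RNA channel, had the largest falls. RPS9 was at 782, 352 and 501 CPM in H9 and at 841, 357 and 465 in HES2. It fell by 0.97 on the log2 scale (SE 0.19, limma adjusted p = 0.0170). RPS3, which also acts in DNA repair, was at 1491, 694 and 943 CPM in H9 and 1327, 621 and 777 in HES2, a change of -0.91 (SE 0.19, adjusted p = 0.0189). For both genes the shDDX18#1 libraries were the lowest of their line and no knockdown library reached a shLuc library.

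RPS25 (-0.77), required by several viral internal ribosome entry sites, and RPS15A (-0.75) were also called. RPS25 was at 519, 294 and 366 CPM in H9 and 545, 272 and 327 in HES2. In all, 7 of 12 measured proteins of the small subunit head fell, against 16 of 29 small subunit members and 6.26% of all genes tested. Among the 7 were RPS3, RPS25, RPS29, RPS16 and RPS27A, the last made as a fusion with ubiquitin. RPS28, RPS20 and RPS15 of the head stood at -0.49, -0.47 and -0.36 without passing.

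RPS19, which sits in the head and is the gene most often mutated in Diamond-Blackfan anaemia, stood apart. Encoded on chromosome 19 at 41859918 to 41872926 on GRCh38, it was at 920, 941 and 1030 CPM in H9 (shLuc, shDDX18#1, shDDX18#3) and at 803, 814 and 754 in HES2. The knockdown libraries lay on both sides of their shLuc library, with 1 of 4 below it. The change was 0.03 with SE 0.15 (limma adjusted p = 0.906), and its sign turned to -0.029 when values were scaled by the total without members. Its level was 862 ± 82.2 CPM (SD, n = 2) in shLuc and 885 ± 124 (n = 4) in knockdown.

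RPL28, a protein that bacterial ribosomes lack, was the least changed large subunit gene. It was at 551, 578 and 538 CPM in H9 and 611, 459 and 505 in HES2, so that the H9 knockdown libraries lay on either side of their shLuc library and both HES2 knockdown libraries lay below theirs. The fitted change was -0.16 (SE 0.15, limma adjusted p = 0.495). It was 0.018 without HES2 shLuc. The difference between the lines was -0.36 with SE 0.31 (interaction, unadjusted p = 0.277).

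RPS15 and RPL36 were lower in every pair by a small amount. RPS15 was at 442, 345 and 343 CPM in H9 and 434, 350 and 327 in HES2 (change -0.36, adjusted p = 0.0968). RPL36 was at 437, 374 and 367 CPM in H9 and 438, 318 and 321 in HES2 (change -0.35, adjusted p = 0.116). RPL36 differed from its shLuc library by -0.23 and -0.25 in H9 and by -0.46 and -0.45 in HES2. In neither gene was shDDX18#1 below shDDX18#3 in both lines. RPL38, known for its part in translating homeobox messengers in the embryo, and RPL34 were at -0.42 each and were not called.

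**Figure D3:**
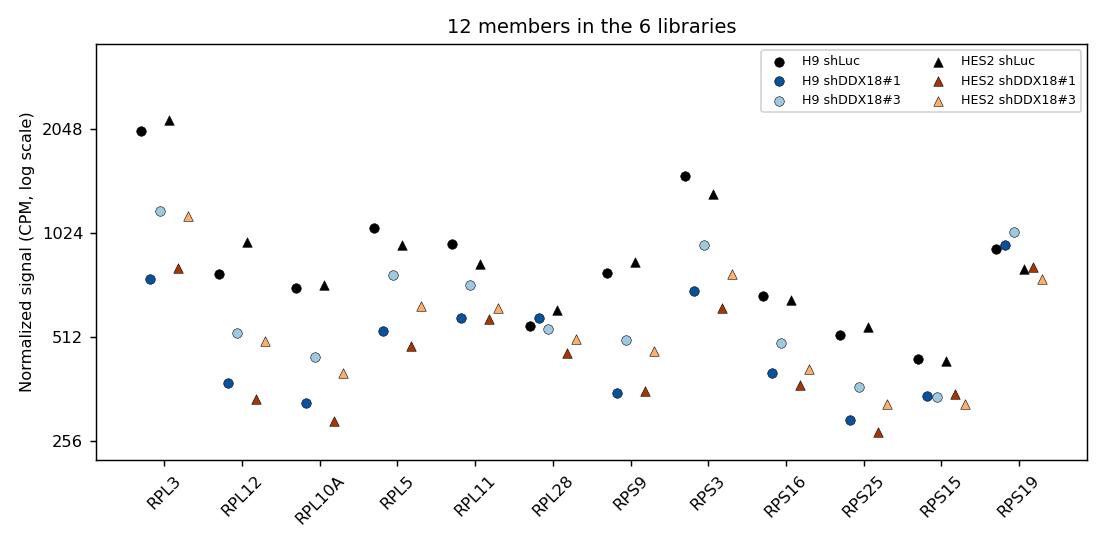
Normalized signal (CPM, log scale) of 12 members in the 6 libraries; black points are shLuc, dark and light colours shDDX18#1 and shDDX18#3, circles H9 and triangles HES2. For RPL3, RPL12, RPL10A, RPS9 and RPS3 the black points lie clear above the others, whereas the 6 points of RPS19 mix between 754 and 1030 CPM.

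Genes of Diamond-Blackfan anaemia, an inherited failure of red cell production from ribosomal protein loss, fell in 8 of 17 measured cases. Over all members 43 of 75 fell, and over all genes tested 6.26%. The median change of the 17 was -0.56, against -0.59 over all members. RPL5, RPL26, RPL31, RPL35, RPL35A, RPS7, RPS27 and RPS29 were the 8 that fell. RPL15 (-0.72, adjusted p = 0.0583) and RPS24 (-0.51, adjusted p = 0.0640) were among the 9 that did not pass.

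Proteins with a counterpart in the bacterial ribosome fell in 14 of 18 cases in the large subunit (median -0.66), and the other large subunit proteins in 13 of 28 (median -0.54). In the small subunit the counts were 8 of 14 (median -0.67) and 8 of 15 (median -0.57). Of all large subunit members 27 of 46 fell and of all small subunit members 16 of 29, against 6.26% of all genes tested. No difference between these lists was tested.

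Coding length went with the size of the change, more closely with shDDX18#1 than with shDDX18#3. Of members with fewer than 120 codons 7 of 18 fell (median -0.48), and of those from 120 to below 180 codons 17 of 29 (median -0.59). Of those with 180 or more 19 of 28 fell (median -0.67), against 43 of 75 members and 6.26% of all genes tested. These limits were set after the values had been seen. Across the 73 members with a mean of at least 20 CPM, coding length in log2 codons and change correlated with r of -0.37 and rho of -0.45. Within the 45 large subunit genes r was -0.46 and rho -0.55, and within the 28 small subunit genes r was -0.22 and rho -0.26. Over the 73, r and rho were -0.43 and -0.54 with shDDX18#1 and -0.23 and -0.27 with shDDX18#3. Among large subunit genes they were -0.50 and -0.61 with shDDX18#1 and -0.33 and -0.36 with shDDX18#3. Among small subunit genes they were -0.30 and -0.44 with shDDX18#1 and only -0.07 and -0.08 with shDDX18#3. The points share their 6 libraries, and length also correlated with the shLuc level (r = 0.52), so the figures describe these genes only. RPL3 and RPL4, with 403 and 427 codons the longest members, lie at the low end, while RPL41, with 25 codons the shortest, was called at -0.56.

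**Figure D4:**
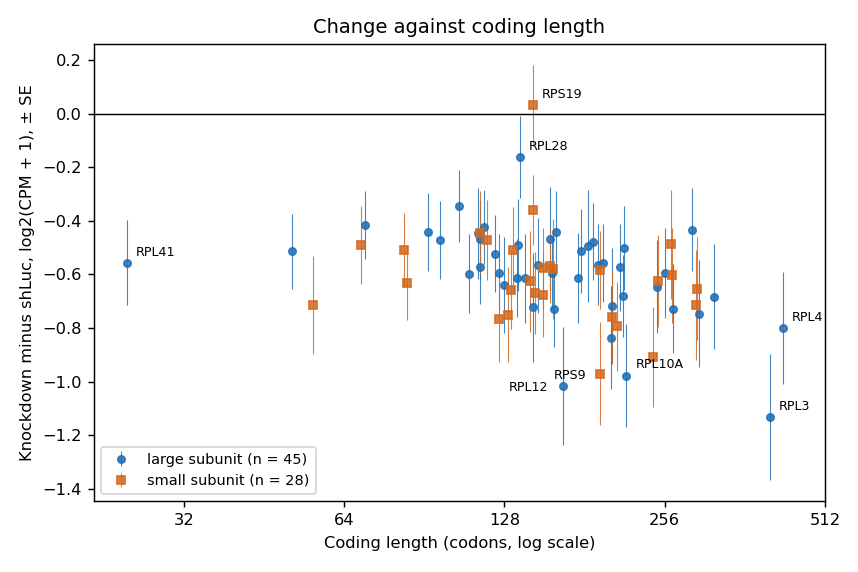
Change of each member with its standard error (log2(CPM + 1), vertical axis) against coding length (codons, log scale), for 45 large (blue circles) and 28 small (orange squares) subunit genes with a mean of at least 20 CPM. The median over all members is -0.59, and the largest falls, of RPL3, RPL12, RPL10A, RPS9 and RPS3, lie at 165 codons or more.

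Other shared features separated the members less. Of the 28 members whose introns host a small nucleolar RNA, a guide of ribosomal RNA modification, 17 fell (median -0.61), and of the other 47, 26 fell (median -0.57). RPL4, with 5 annotated small nucleolar RNAs, was called, as was RPL13A with 4, whereas RPL23A with 4 was not. Members with a strict TOP start fell in 26 of 45 cases (median -0.59), and those with a promoter entry but no such start in 8 of 16 (median -0.56). The letters CTTCCG, sought on both strands from 250 bases before to 50 after the start, were present in 63.9% of members with an entry and in 22.6% of all genes. The genes are scattered over 21 chromosomes. Of the 12 on chromosome 19, 5 fell (median -0.53), against 43 of 75 members and 6.26% of all genes tested.

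Each hairpin was also compared with shLuc. Because both use the same shLuc libraries, their values are given side by side. With shDDX18#1, 69 of 75 members fell and 0 rose, against 13.4% of all genes tested that fell and 14.4% that rose, with a median of -0.71. With shDDX18#3, 25 of 75 fell and 0 rose, against 3.69% of all genes that fell and 6.96% that rose, with a median of -0.46. Among genes at 200 CPM or more, 64 of 68 members fell with shDDX18#1 against 37.5% of all such genes, members included. With shDDX18#3 it was 25 of 68 against 15.2%. The 6 members not called with shDDX18#1 were RPL36A, RPS10, RPS15, RPL36, RPL28 and RPS19.

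The count for shDDX18#1 was 22 without the intensity trend and 34 without the cell line in the model. In those fits 6.72% and 5.64% of all genes tested fell. The count was 43 without H9 shDDX18#3 and 41 without HES2 shDDX18#3, where 7.43% and 7.17% of all genes fell. Without H9 shDDX18#1, which leaves 1 library of that hairpin, the members' median was -0.69. The count for shDDX18#3 was 0 without the trend and 0 without the cell line, 13 in DESeq2, 0 without either shDDX18#3 library, 16 without HES2 shLuc and 41 without H9 shLuc.

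The hairpins were compared with each other directly. In 65 of 75 members shDDX18#1 lay below shDDX18#3 in both lines, which held for 33.6% of all genes tested. In limma 0 members differed at an adjusted p under 0.05, as did 0 of all genes, and at an unadjusted p under 0.05 24 were higher and 0 lower in shDDX18#3, against 7.82% and 6.46% of all genes. The count was 0 in edgeR and DESeq2 too, with 22 and 10 at an unadjusted p. RPL3 had the lowest adjusted p, with a difference of 0.58 (SE 0.14, limma adjusted p = 0.149). Without H9 shLuc or HES2 shLuc the other shLuc library is fitted exactly, so both fits rest on the same 4 knockdown libraries. The median difference was 0.25 in each, and some members were called higher in shDDX18#3. The 24 at an unadjusted p became 7 without H9 shDDX18#1, 0 without H9 shDDX18#3, 9 without HES2 shDDX18#1, 4 without HES2 shDDX18#3 and 1 without the intensity trend.

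The effect of knockdown was then compared between the lines. The median change was -0.55 in H9 and -0.66 in HES2. The direction of that difference rests on single libraries: the median interaction was -0.12 over all libraries, 0.04 without H9 shDDX18#3, -0.0033 without HES2 shDDX18#1 and -0.30 without H9 shDDX18#1. In the interaction 0 of 75 members passed in limma, edgeR and DESeq2, and 0 had an unadjusted p under 0.05 in any of them, where limma gave 2.51% and 1.92% of all genes such a p in the lower and higher direction. The widest standardised difference was that of RPL31, which stabilises the tunnel rim, at -0.40 in H9 and -0.78 in HES2, a difference of -0.38 with SE 0.28 (unadjusted p = 0.222). Standard errors near 0.34 mean that a difference of the size of the median change itself could go uncalled here. Across the 73 members at 20 CPM or more, the changes in the lines correlated with r of 0.67 and rho of 0.54, over genes that share their libraries.

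**Figure D5:**
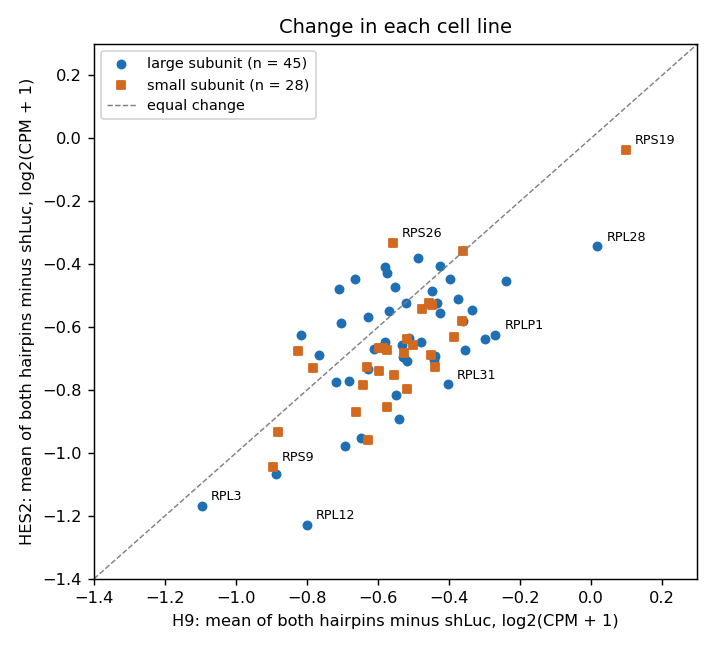
Change in HES2 (vertical axis) against change in H9 (horizontal axis), each as the mean of both hairpins minus shLuc in log2(CPM + 1), for 45 large (blue circles) and 28 small (orange squares) subunit genes. RPL3, RPL12 and RPS9 are low in both lines and RPS19 is near 0 in both, and more points lie below the dashed line of equal change, with a median of -0.66 in HES2 and -0.55 in H9.

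At matched hairpin, members were at a similar level in HES2 and H9. The median difference was -0.13 (HES2 minus H9), and it was 0.00 when values were scaled by total reads, a scaling that moved the median of all genes from 0.03 to 0.15. In limma 0 members passed, while 3.98% of all genes were lower and 1.44% higher in HES2. At an unadjusted p under 0.05, 7 members were lower and 0 higher in HES2 in limma, against 11.6% and 9.43% of all genes. By edgeR 9 and by DESeq2 5 were lower at that p, with 0 passing adjustment. RPS13, a protein of the small subunit platform, had the smallest p. It was at 354, 218 and 278 CPM in H9 and 284, 172 and 193 in HES2, lower in HES2 in every arm, with a difference of -0.39 (SE 0.11, limma adjusted p = 0.0775). The fits without H9 shLuc and without HES2 shLuc again rest on the same 4 knockdown libraries. The median difference was -0.18 in each, and some members were called lower. Other scalings turn the counts at an unadjusted p: 0 members were lower and 2 higher per total reads, 1 and 4 with quantile normalization, and 13 and 0 with median-ratio size factors.

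Levels between members were compared per coding length, as the mean CPM of the 2 shLuc libraries per kilobase of coding sequence. The median was 1414 over all members, 1399 in the large and 1448 in the small subunit. The highest levels were those of RPL41 (5220), RPLP1 (3544) and RPL13A (2565) in the large subunit and of RPS2 (2340) and RPS27 (2183) in the small. The rank of RPL41 follows from its coding length of 25 codons.

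At the other end, RPS10 (5.56), RPL36A (29.2), RPL17 (49.9) and RPL26 (102) had the lowest levels per kilobase of coding sequence. In each of these 4 over 60% of the messenger RNA is shared with another gene annotated on the same strand, such as RPS10-NUDT3 for RPS10. Their median was 39.5, against 1433 for the other 71 members. Below that cut, RPL18, with 50.9% shared on the same strand, was at 1177, and RPS15A, with 41.5% shared, was at 205. Rows named as pseudogene copies held 215%, 133% and 47.4% of the member's own shLuc signal for RPL36A, RPL17 and RPL26. RPS10 had no such row, and RPL24, with copies at 33.2%, was at 955. How reads divide between overlapping genes, or between a member and its copies, is uncertain. RPS10 was at 3.05, 0.817 and 2.27 CPM in H9 and 2.46, 1.61 and 1.67 in HES2, where the floor of 3 reads lies between 0.671 and 1.23 CPM, so its change of -0.56 (adjusted p = 0.305) rests on few reads. RPL30 is crossed by the antisense gene RPL30-AS1, listed at 371 CPM in H9 shLuc beside 536 for RPL30, and the TruSeq kit does not keep the strand.

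Ribosomal proteins under other names lie outside the naming rule. RACK1, a signalling scaffold on the small subunit head, fell from 1423 CPM in H9 shLuc to 865 and 1043 and from 1308 in HES2 shLuc to 759 and 896 (change -0.62, limma adjusted p = 0.0420). FAU, which encodes a ribosomal protein fused to a ubiquitin-like protein, was at -0.23 without passing (adjusted p = 0.254).

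Paralogs outside the naming rule moved in opposite directions. RPL22L1, which can replace RPL22, fell from 53.7 CPM in H9 shLuc to 10.2 and 14.6 and from 50.7 in HES2 shLuc to 14.8 and 20.9 (change -1.76, SE 0.25, limma adjusted p = 0.00550). RPS27L rose, with 93.9, 168 and 192 CPM for H9 and 42.5, 136 and 105 for HES2 (change 1.20, SE 0.18, adjusted p = 0.00704). Their main counterparts RPL22 and RPS27 changed by -0.64 and -0.63. RPL39L, RPL7L1, RPL26L1 and RPL36AL were not called, at -0.79 to -0.14.

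The wider class of TOP messengers, mostly translation factors, fell in 8 of 20 measured cases with a median of -0.54, where 6.26% of all genes tested and 21.1% of those at 200 CPM or more fell. The 8 were SNHG1 (-1.03), HNRNPA1 (-1.12), NPM1, EIF3E, EIF4B, EIF3L, NAP1L1 and EEF1B2. VIM rose, and it also stands on the fibroblast list. EEF1A1 and EEF2, the elongation factors, were at -0.60 and -0.44 without passing. Of 12 regulators of TOP messengers CNBP fell (-0.68) and TSC1 rose (0.68), while LARP1 (-0.34) and MTOR (-0.29) were not called.

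Against the same 6.26% of all genes tested, 4 of 13 genes on a list of escorts of ribosomal proteins fell. These included IPO5 (-0.82), NAP1L1 (-0.77), also counted among the TOP messengers above, and PDCD2 (-0.70), the escort of RPS2. The other was NOB1 (-0.56), which is not an escort but an endonuclease of the last maturation step of the small subunit. Genes of the sensing of free ribosomal proteins were named for their values, and the rest of that list is not reported here. MDM2 rose by 2.03 and CDKN2A by 2.40, and NOP53, a partner of the 5S particle, fell by 0.80, all on the log2 scale. Over all genes tested 9.6% rose and 6.26% fell. Mitochondrial ribosomal proteins, encoded by separate nuclear genes for the organelle's own ribosome, fell in 10 of 77 cases and rose in 0, with a median of -0.30, where 6.26% of all genes tested fell with a median of -0.02. The difference from the cytosolic genes was not tested.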

How the data were processed

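The 6 libraries were prepared with a TruSeq kit, which keeps no strand. Per the submitters' processing notes the tools were edgeR 3.26.8, HTSeq 0.11.2, SAMtools 1.9 and Bowtie2 2.3.4.3 and the build hg19, and the part each tool played is not given in the sources used here. The authors deposited a normalized signal per gene and library, log2 fold changes, a likelihood ratio score, p-values and false discovery rates. All signal values (100%) came out as whole reads, to a tolerance of 0.001, once divided by the worth of 1 read, which gave the recovered reads and library totals; the counting that made them cannot be seen beyond this. The score was not used.

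The test took genes that reached 1 CPM in 2 or more libraries (17768 of 17929, all 75 members) and used limma 3.58.1 (intensity trend, R 4.3.3) on log2(value + 1), which understates changes of low genes, with Benjamini-Hochberg adjustment over all genes and cell line as a block. Libraries of a line are paired by the line, and their deviations correlated at 0.363, 0.454 and 0.654. All 6 libraries share 1 estimate of spread, with 3 residual degrees of freedom for knockdown against shLuc and 2 in the other models. On the recovered reads edgeR 4.0.16 called 1189 genes lower in knockdown and DESeq2 1.42.0 called 1043, against 1113 in limma.

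Members and lists were chosen with earlier results of these data known. Members were named by rule: the largest and smallest changes in each subunit at a mean of at least 20 CPM, the highest and lowest levels per length, the 5S particle and stalk proteins, the leading line differences and, of other lists, the smallest p; others were chosen with their values in view, and some genes picked by it are not reported here. Groupings by codons, small nucleolar RNAs, TOP start, overlap and chromosome were made after values were seen. Levels were taken per coding length, not exon length as planned, because annotated exon lengths were implausible for some members. Gene positions came from a GENCODE annotation on GRCh38. Of the members 61 matched the RefSeq promoter table.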

Additional observations from a re-analysis of the deposited data

How the results depend on the processing

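Over 20 alternatives, the median changes of the large and small subunit kept their sign and stayed within the spread of the pairs, and 0 members rose in each. Falls in knockdown (43) came to 26 with quantile normalization, 0 without the intensity trend and 10 without the cell line as a block. In these fits 6.67%, 1.92% and 2.3% of all genes fell, against 6.26% in the main fit. Without single knockdown libraries the falls came to between 0 and 61, where 1.39% to 9.19% of all genes fell. For shDDX18#1 (69) the counts were 22 without the trend, 34 without the block and 39 to 66 without single libraries. For shDDX18#3 (25) they were 0, 0 and 0 to 41, with 13 in DESeq2. Comparing the hairpins (0), 0 to 6 members passed without single libraries, and between the lines (0), 0 to 4. The cause of these shifts was not tested, beyond the fewer samples where a library is left out. No fallen member passed in all 20; RPL10A, RPL12, RPL29, RPL3, RPS25, RPS3 and RPS9 passed in 16. RPL28 (-0.16) ranged from -0.34 to 0.018 without single libraries, turning positive without HES2 shLuc. RPS19 (0.03) ranged from -0.037 to 0.098, turning negative without H9 shLuc and, at -0.0066, without H9 shDDX18#3, and it was -0.029 with the total without members. Among the values of single named genes under these alternatives 536 kept direction and side of the threshold, 106 lost their call and 13 gained one. The interaction could not be estimated without a shLuc library, and removing the block does not apply to it or to the line comparison. Low depth limits RPS10 and RPL36A most.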

Other observations

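Rows named as pseudogenes of the members, 83 in all, were kept apart from them. Together they took 0.137% of reads in H9 shLuc and 0.152% in HES2 shLuc, and 0.0831% to 0.104% in the knockdown libraries. How reads divide between a member and a near-identical copy is uncertain. Of the 82 tested, 8 fell and 2 rose in knockdown, where 6.26% of all genes tested fell and 9.6% rose.

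Of these rows 3, chosen after their values had been seen, differed between the lines, while no member passed that comparison. RPL13P12 was at 88.3, 58.0 and 65.2 CPM in H9 (shLuc, shDDX18#1, shDDX18#3) and at 1.56, 1.29 and 1.95 in HES2, while RPL13 was at 1053 and 1341 CPM in the shLuc libraries of H9 and HES2. RPS28P7 was at 29.9, 18.4 and 19.8 CPM in H9 and 9.17, 9.01 and 7.24 in HES2, and RPS2P5 was higher in HES2, with 216 CPM in H9 shLuc and 416 in HES2 shLuc. The differences (HES2 minus H9, log2) were -4.77, -1.30 and 0.82 for RPL13P12, RPS28P7 and RPS2P5 (limma adjusted p = 2.77e-05, 0.013 and 0.00607).

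RPL31P38 and RPL29P26 were listed at 0 in both shLuc libraries. RPL31P38 was at 17.6 and 5.19 CPM in H9 (shDDX18#1, shDDX18#3) and at 3.54 and 0.835 in HES2. RPL29P26 was at 5.72 and 2.59 CPM in H9 and at 2.25 and 0 in HES2. RPL31P38 rose (limma adjusted p = 0.0347), as did RPL19P6 (0.0329), and RPL29P26 was not called (0.0965). For these 3 rows shDDX18#1 was the higher of the knockdown libraries in each line. RPL15P5, also low in shLuc, was at 6.53 and 1.62 CPM in H9 (shDDX18#1, shDDX18#3) but at 0.644 and 1.11 in HES2. The fibroblast and feeder marker share was also higher with shDDX18#1 (4.69% and 1.96% in H9, 0.861% and 0.712% in HES2), and the loss of DDX18 transcript was larger. The part of the feeder cells in these rows was not tested.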
